A study of Mus musculus with 6 samples.

Results

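*Grn*, which encodes progranulin, and 38 further lysosomal genes were examined in mouse neuronal cultures after knockdown of the phospholipase gene *Pla2g4e*. The 39 genes are *Grn*, its sorting receptor *Sort1*, hydrolases, membrane proteins, subunits of the proton pump and the transcription factor *Tfeb*, found by symbol among the 55357 genes of the count files. All 39 passed the filter of at least 6 reads in at least 1 library. *Grn* was chosen by its fall between these same libraries, and the other 38 were added as genes of the same compartment when that fall was known. The changes of all 39 between the groups are therefore given as a description, and the question they address is whether the fall of *Grn* stood alone. The cultures came from cortex and hippocampus of wild-type C57BL/6N embryos (E18), were transduced with lentivirus at DIV4 (day in vitro 4) and were collected at DIV14. The 3 shCtrl libraries received a scrambled short hairpin RNA and the 3 shPla2g4e libraries received the hairpin sh2 against *Pla2g4e*. Both groups are therefore transduced and wild type in genotype, and the comparison is of a partial knockdown with 1 hairpin sequence. The labels do not say whether the replicates are separate cultures, so the tests measure only the spread between these libraries.

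Progranulin is a secreted glycoprotein that neurons and microglia make. It reaches the lysosome by binding sortilin, the product of *Sort1*, or together with prosaposin, the product of *Psap*, and is cut there into granulins. Loss of 1 copy of the human gene is a known cause of frontotemporal dementia, and loss of both copies causes a lysosomal storage disease. Many lysosomal genes carry short palindromic sites in their promoters to which the transcription factor TFEB binds, and the lysosome is kept acidic by the V-ATPase.

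The guide strand of sh2 is taken here as the antisense sequence in the study's oligonucleotide list, and its ends in the cells were not measured. This guide, and the sites in 3′ untranslated regions (3′ UTRs) that match its seed, are shown for 1 reason. Both members that passed the threshold for lower expression hold such sites, as was seen after their values were known. *Tmem106b*, which also holds 2, is shown beside them. The seed is bases 2 to 8 of the guide, written in capitals in the guide, and the matching 7 bases are in capitals in each target.
sh2 target in *Pla2g4e*: ggaagatggtgGTGGCCAa
sh2 guide: tTGGCCACcaccatcttcc
*Grn* first site: gaaagaaggctGTGGCCAaaagccccgtat
*Grn* second site: ctgtggaccttGTGGCCAggtgctcttccc
*Glb1* first site: cttgaccatcgGTGGCCAttttccaagcca
*Glb1* second site: ctcccaccctaGTGGCCAccgggaaggctg
*Tmem106b* first site: gtggtctgtgtGTGGCCAcccttcccgtac
*Tmem106b* second site: ggttgaggatgGTGGCCAccaagcttgatg
The *Grn* windows lie at chr11:102436643-102436672 and chr11:102436696-102436725 on the plus strand of GRCm38. The matches begin at bases 182 and 235 of a 3′ UTR of 337 bases. The first of them also pairs with guide base 1, which no other member's site does. The *Glb1* windows lie at chr9:114474047-114474076 and chr9:114474234-114474263 on the plus strand, with matches from bases 17 and 204 of a 3′ UTR of 336 bases. The *Tmem106b* windows lie at chr6:13085779-13085808 and chr6:13086962-13086991 on the plus strand, with matches from bases 1464 and 2647 of a much longer 3′ UTR of 4943 bases.

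The seed match GTGGCCA was present in an annotated 3′ UTR of 7 of the 39 members (17.9%), against 14.6% of the 15697 tested genes with an annotated 3′ UTR. The 7 were *Grn*, *Glb1* and *Tmem106b* with 2 sites each, and *Ctsb*, *Ids*, *Scarb2* and *Tfeb* with 1 site each, and the count was also 7 in the longest coding transcript alone. In the coding sequence the match was present in 9 members (23.1%), against 26.0% of all those genes. As a description, all 3 members with 2 sites were lower in every shPla2g4e library than in any shCtrl library, as were 14.6% of all genes tested, and the groups overlapped in the 4 with 1 site. *Grn* and *Glb1* passed the threshold. The log2 fold changes of the other 5 members with a site ran from −0.10 in *Ids* and *Tmem106b* to 0.10 in *Scarb2*, and none passed the threshold. Among the other lysosomal genes examined below, *Sorcs1* holds 3 sites and *Rptor* holds 2. Their log2 fold changes were −0.006 and −0.116, and neither was called with or without the replicate number as a block. The part of the number of sites was not tested. Among all 856 genes called lower that have a 3′ UTR the share with the match was 44.2%, and among the 479 called higher it was 7.72%. The 3′ UTRs of these sets differed in length, with medians of 1892 bases in the genes called lower, 1270 in those called higher and 1115 in all tested. A match is a statement about these letters, and no binding was measured.

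The libraries held 17054717 to 23570180 reads assigned to genes. Expression is given as CPM, read counts divided by the library size after scaling with the trimmed mean of M values (TMM), and levels are compared between genes only after division by exon length. *Pla2g4e* itself fell from 36.1 ± 1.6 to 18.2 ± 3.87 CPM (SD, n = 3), which is 50.5% of the shCtrl mean, with a log2 fold change of −0.99 (standard error 0.13, edgeR adjusted p = 0.000124). Of all 21876 genes tested, 4.00% were called lower and 2.48% higher at an edgeR adjusted p of 0.01, or 9.02% and 6.50% with the replicate number as a block. The neuron markers were abundant, with a summed level of 6419 to 7070 CPM in shCtrl and 5923 to 6474 CPM in shPla2g4e. Of the 10 neuron markers, 2 were called lower, among them *Rbfox3* (−0.41, edgeR adjusted p = 0.00477), and 1 was called higher (3 and 2 with the block). The *Rbfox3* call was lost without any 1 library except shCtrl replicate 3. *Snap25*, the list's highest per length, went the other way, from 965.5 ± 42.4 to 1156 ± 81.7 CPM (SD, n = 3, log2 fold change 0.26). Its groups did not overlap. It was called higher with the block and with library size alone as the scaling, but not in the fit reported. The astrocyte markers summed to 2978 to 3805 CPM in shCtrl and 2051 to 3244 CPM in shPla2g4e, and 3 of 10 were called lower, or 7 lower and 1 higher with the replicate number as a block. *Aqp4*, the water channel of astrocytes, was among the 3 called lower without the block, at 147.9 ± 32.6 and 65.2 ± 25.9 CPM (SD, n = 3, log2 fold change −1.19, edgeR adjusted p = 0.000853). Its call was lost in the robust edgeR fit and in DESeq2. *Gfap*, the astrocyte filament protein, had 665.3 ± 141.0 and 433.1 ± 137.0 CPM (SD, n = 3; log2 fold change −0.62, edgeR adjusted p = 0.0267, or 6.26e-12 with the block). The 14 microglia markers summed to 25.5 to 38.9 CPM in shCtrl and 19.5 to 30.2 CPM in shPla2g4e, most of it from *Sall1* (20.5 and 16.9 CPM). The defining microglia genes *Csf1r* and *Cx3cr1* were near 0, at 0.752 and 1.22 CPM in shCtrl and 1.47 and 0.561 CPM in shPla2g4e. Of the 12 microglia markers tested, 10 had a negative log2 fold change, with a median of −0.68. None of them was called by edgeR without the block, limma or DESeq2 (4 had an unadjusted p under 0.05), and 1 was called lower with the block. None of the 10 oligodendrocyte lineage markers and none of the 9 endothelial and mural markers tested was called by edgeR without a block for the replicate number, by limma or by DESeq2, with 1 and 2 at an unadjusted p under 0.05. With that block, 1 oligodendrocyte lineage marker was lower (*Olig2*) and 2 endothelial and mural markers were higher. The sums of the oligodendrocyte lineage and of the endothelial and mural markers were 572.0 to 647.9 and 48.9 to 87.7 CPM in shCtrl and 587.8 to 723.6 and 54.0 to 103.2 CPM in shPla2g4e. *Olig1*, *Olig2* and *Mbp* had log2 fold changes of −0.13, −0.38 and 0.05, while 8 of the 10 of their list were positive. *Acta2* and *Pdgfrb* had −0.03 and −0.32, while 7 of the 9 of theirs were positive. In bulk libraries, fewer cells of a type and less RNA per cell cannot be told apart, and the part of the astrocyte and microglia marker values in the results that follow was not tested.

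The 39 genes spanned a wide range of levels in the control cultures. The saposin precursor gene *Psap* had the highest level per length, at 476.7 ± 17.9 CPM per kb of exon (SD, n = 3). It was followed by the V-ATPase subunit *Atp6v0d1* at 127.8 ± 9.07, the lysosomal membrane glycoprotein *Lamp1* at 106.6 ± 6.70 and the V-ATPase subunit *Atp6v1b2* at 105.0 ± 8.24 CPM per kb, and the last 2 of these differed by less than their SDs. *Grn* ranked 15 of 39 at 22.9 ± 1.53 CPM per kb, which its neighbours *Tmem106b* (24.5 ± 0.535), *Ctsl* (22.8 ± 1.41) and *Ppt1* (22.5 ± 1.6) could not be separated from by their SDs. Its receptor *Sort1* stood higher at 55.1 ± 3.0 CPM per kb. *Tfeb* was low at 1.23 ± 0.122 CPM per kb. The lowest were the cathepsins *Ctss* (0.577 ± 0.182) and *Ctsh* (0.205 ± 0.121 CPM per kb), whose libraries held only 2 to 24 and 7 to 32 reads.

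**Figure D1:**
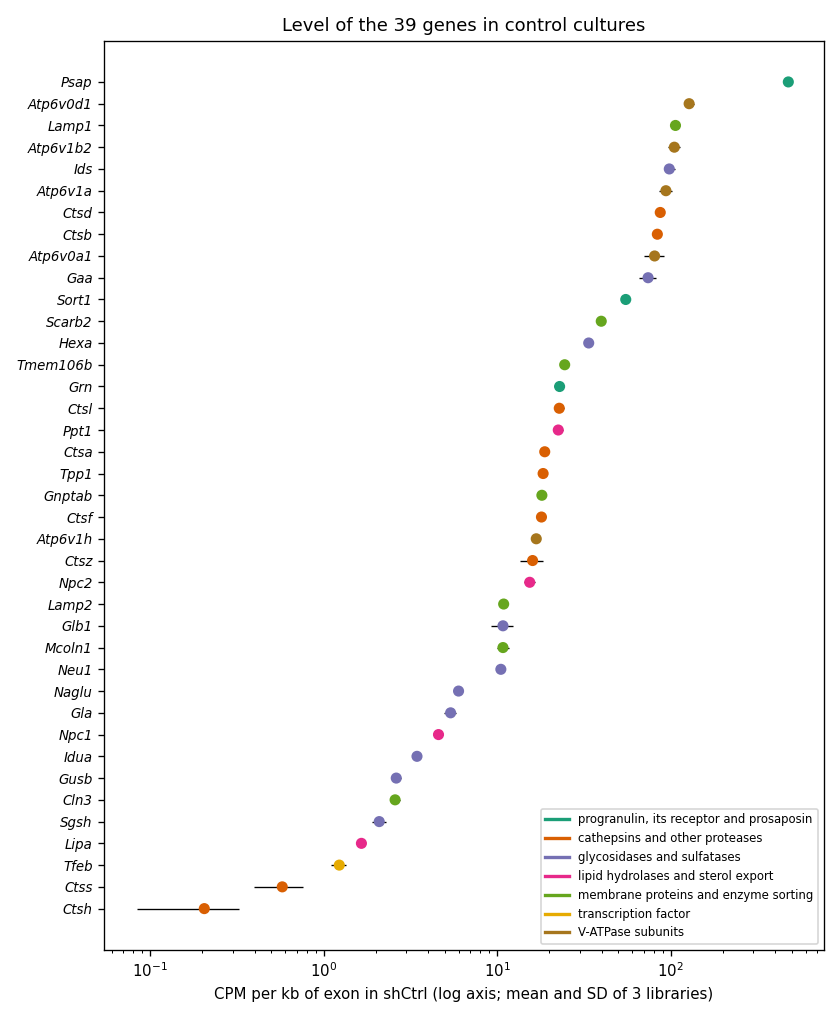
Level of each of the 39 genes in the shCtrl libraries, in CPM per kb of exon on a log axis, as the mean and SD of 3 libraries, coloured by role. *Psap* lies far to the right at 476.7, *Grn* sits mid-range at 22.9, and *Ctss* and *Ctsh* lie below 1.

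*Grn* stood at 85.5, 78.3 and 75.1 CPM in the shCtrl libraries 1 to 3 and at 30.0, 31.1 and 32.3 CPM in the shPla2g4e libraries. All 3 shPla2g4e libraries were far below all 3 shCtrl libraries, and they differed little among themselves. The gene (ENSMUSG00000034708) lies at chr11:102321141-102327874 on the plus strand of GRCm39. The values rest on 1555 to 1762 reads per shCtrl library and 565 to 718 reads per shPla2g4e library. The mean fell from 79.6 ± 5.33 to 31.1 ± 1.12 CPM (SD, n = 3), a log2 fold change of −1.35 (standard error 0.086, 95% interval −1.54 to −1.17).

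For *Sort1* and *Psap*, which serve the routes of progranulin to the lysosome named above, no change passed the threshold. *Sort1* had 430.0, 430.2 and 390.8 CPM in shCtrl and 393.9, 385.0 and 440.8 CPM in shPla2g4e, so the groups overlapped. Its log2 fold change was −0.04 (95% interval −0.21 to 0.14). *Psap* had 1364, 1290 and 1271 CPM in shCtrl and 1169, 1265 and 1259 CPM in shPla2g4e. The *Psap* groups did not overlap, but the log2 fold change was only −0.09 (95% interval −0.25 to 0.08) and did not pass the threshold.

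Of the 39 members, 2 were called lower in shPla2g4e and 2 were called higher at an adjusted p of 0.01 in edgeR's quasi-likelihood test over all 21876 genes tested. Over all genes, 4.00% were called lower and 2.48% higher. Without *Grn*, which was chosen by its fall, 1 of 38 was lower and 2 were higher. The 2 lower were *Grn* and the β-galactosidase gene *Glb1*, and the 2 higher were *Hexa* and *Gla*. The median log2 fold change of the 39 was 0.03, equal at this precision to the median of all genes tested. The groups did not overlap for 4 members that were lower (3 without *Grn*) and 10 that were higher, against 14.6% and 15.5% of all genes tested. The numbers in the sample titles paired the libraries across the groups, and with that pairing as a block the counts became 2 lower and 7 higher, against 9.02% and 6.50% of all genes. The block added *Ctsd*, *Ctsl*, *Neu1*, *Lipa* and *Npc2* to those called higher.

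**Figure D2:**
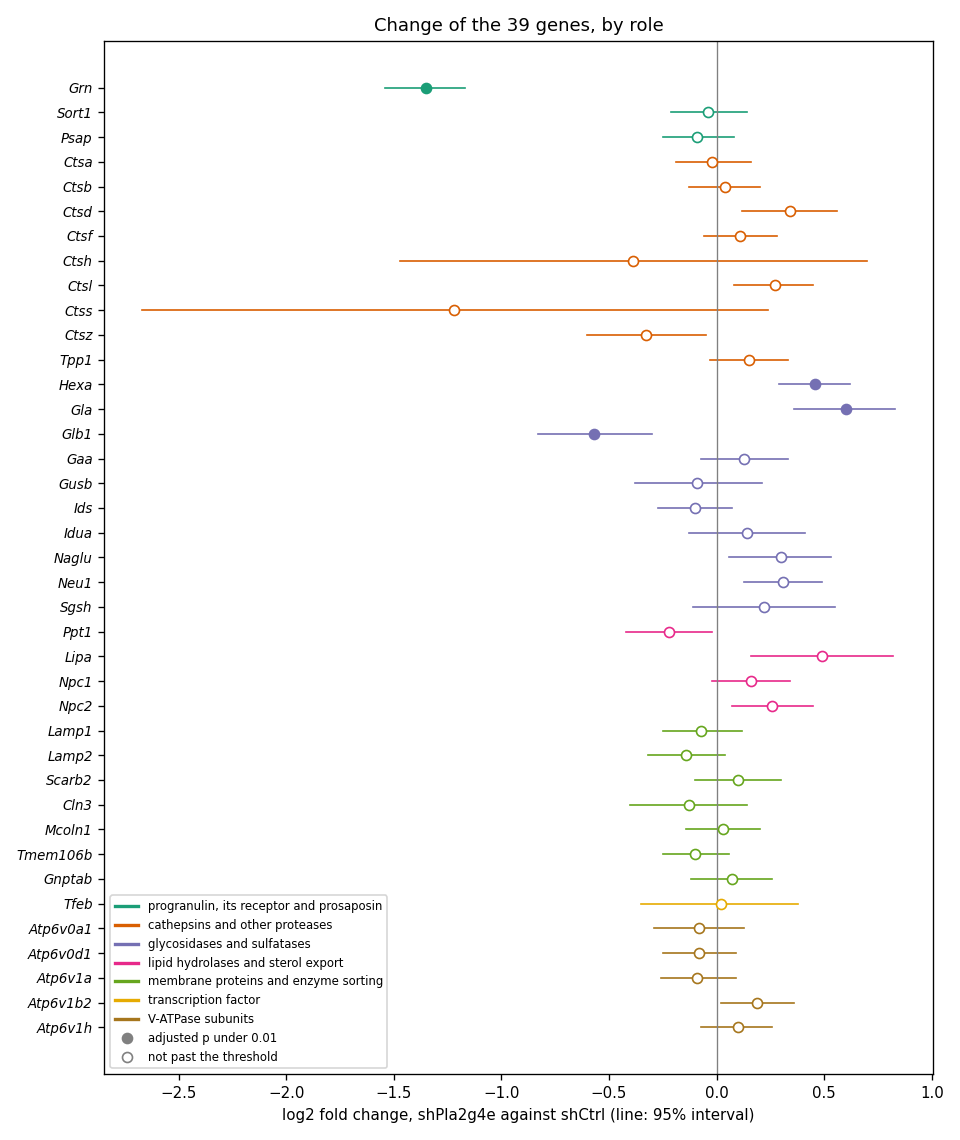
Log2 fold change of each of the 39 genes in shPla2g4e against shCtrl with its 95% interval, grouped and coloured by role. Filled points passed an adjusted p of 0.01: *Grn* at −1.35 and *Glb1* at −0.57 lie to the left of 0, and *Hexa* at 0.46 and *Gla* at 0.60 to the right.

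*Grn* had the lowest log2 fold change of the 38 members other than *Ctss*. The estimate for *Ctss*, which has few reads, ran from −2.53 to −0.76 over 15 alternatives and lay below that of *Grn* in some of them, such as with the replicate block (−1.44 against −1.35). The 95% intervals of 36 of the other 38 members lay wholly above −1.35, and the same 36 lay within −1 to 1, so that a change of 2-fold in either direction was outside their intervals. The exceptions were *Ctsh* and *Ctss*, whose intervals were wide at the read numbers given above. *Ctss* had 0.679, 0.604 and 1.07 CPM in shCtrl and 0.167, 0.0925 and 0.800 CPM in shPla2g4e, with groups that overlapped, and *Ctsh* had a log2 fold change of −0.39 (95% interval −1.47 to 0.70). After *Ctss*, the next lowest log2 fold change was that of *Glb1* at −0.57. Relative to the median of the other members in the same library, *Grn* lay at 0.08, −0.01 and −0.07 on the log2 scale in the shCtrl libraries and at −1.39, −1.49 and −1.30 in the shPla2g4e libraries. *Grn* was also not the lowest of all genes: 24 of the genes called lower had a lower log2 fold change.

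**Figure D3:**
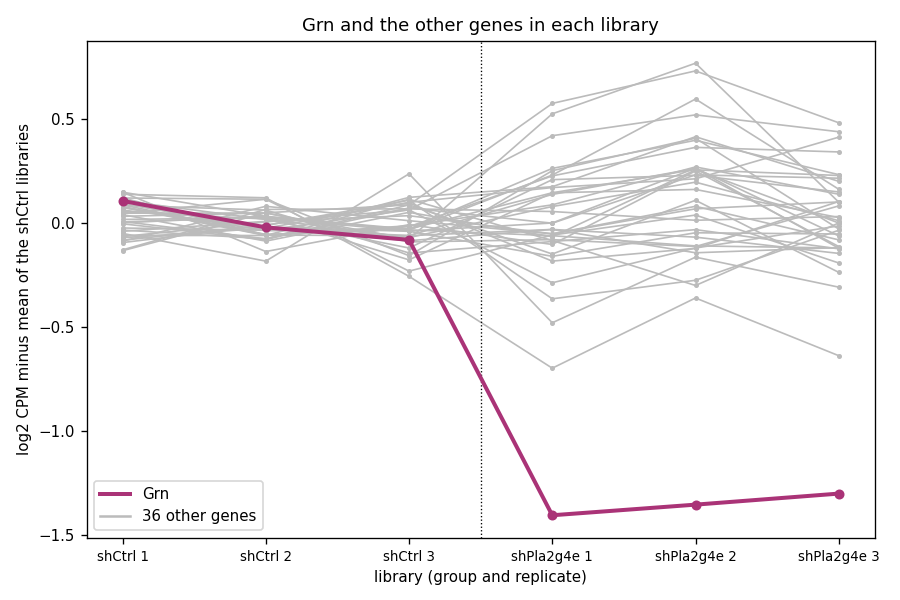
Log2 CPM of *Grn* and 36 other members in each library, minus the gene's own mean over the shCtrl libraries; *Ctsh* and *Ctss* are left out for their few reads. *Grn* drops to between −1.40 and −1.30 in the 3 shPla2g4e libraries, below every grey line.

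Among the 9 proteases, none passed the threshold in edgeR on all 6 libraries without the block, and none did in limma or DESeq2, while 3 had an unadjusted p under 0.05. With no filter on low counts, *Ctsd* passed it in edgeR. Cathepsin D, encoded by *Ctsd*, is the main aspartic protease of the lysosome. *Ctsd* had 215.3, 199.4 and 199.7 CPM in shCtrl and 239.9, 308.8 and 228.8 CPM in shPla2g4e. All 3 shPla2g4e libraries were higher, replicate 2 by far the most, and the log2 fold change was 0.34 (95% interval 0.12 to 0.56). Without shPla2g4e replicate 2 it was 0.19, and without replicate 3 it was 0.42 and passed the threshold. Another gene on the same strand covers 34.4% of the *Ctsd* exon sequence, where reads could not be assigned. *Ctsl*, a cysteine protease, had 140.7, 145.3 and 158.3 CPM in shCtrl and 166.3, 171.3 and 196.7 CPM in shPla2g4e, a log2 fold change of 0.27 (95% interval 0.08 to 0.45). The *Ctsl* groups did not overlap, and an antisense neighbour covers 26.8% of its exon sequence. *Ctsz*, a carboxypeptidase, went the other way with 22.1, 20.1 and 26.9 CPM in shCtrl and 16.4, 20.4 and 18.5 CPM in shPla2g4e (log2 fold change −0.33, 95% interval −0.60 to −0.05) and groups that overlapped. The cysteine protease *Ctsb*, the most abundant protease per length after *Ctsd*, had a log2 fold change of 0.04. The remaining well-measured proteases, *Ctsa*, *Ctsf* and the tripeptidyl peptidase gene *Tpp1*, had −0.02, 0.11 and 0.15.

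The glycosidases and sulfatases held the 3 other members past the threshold, and they did not move together. *Glb1* encodes the β-galactosidase that removes galactose from GM1 ganglioside. It had 35.6, 35.2 and 27.1 CPM in shCtrl and 20.0, 25.2 and 20.8 CPM in shPla2g4e, a log2 fold change of −0.57 (standard error 0.13). The shPla2g4e libraries were all lower, although shCtrl replicate 3 came close to shPla2g4e replicate 2. *Glb1* lay outside the threshold with library size alone as the scaling, with a minimum of 10 reads in every library, and without any 1 of 4 libraries (shCtrl 1 or 2, shPla2g4e 1 or 3), and its log2 fold change ran from −0.69 to −0.49 over 16 alternatives.

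*Hexa* encodes the α subunit of β-hexosaminidase, which removes a sugar from GM2 ganglioside. It had 66.1, 65.6 and 70.2 CPM in shCtrl and 89.8, 96.3 and 91.0 CPM in shPla2g4e, a log2 fold change of 0.46 (standard error 0.078). *Gla*, the α-galactosidase that cleaves globotriaosylceramide, had 16.0, 18.2 and 18.6 CPM in shCtrl and 26.1, 29.1 and 24.5 CPM in shPla2g4e, a log2 fold change of 0.60 (standard error 0.11). Both genes were higher in each shPla2g4e library than in any shCtrl library, and the spread within groups was small beside the gap. *Hexa* lay outside the threshold without shCtrl replicate 2, with a log2 fold change of 0.43 to 0.53 over 16 alternatives. *Gla* lay outside it without shCtrl replicate 1 or 2, or shPla2g4e replicate 2, with a range of 0.52 to 0.67. An antisense neighbour covers 12.8% of the *Hexa* exon sequence, and a neighbour on the same strand covers 5.5% of that of *Glb1*.

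The sialidase gene *Neu1* had 41.4, 37.6 and 38.7 CPM in shCtrl and 45.8, 50.4 and 49.6 CPM in shPla2g4e (log2 fold change 0.31, 95% interval 0.13 to 0.49). *Naglu*, which acts on heparan sulfate, had 15.9, 16.3 and 15.6 CPM in shCtrl and 19.1, 20.9 and 18.7 CPM in shPla2g4e (0.30, 95% interval 0.06 to 0.53). Neither pair of groups overlapped, and only *Neu1* passed the threshold with the block. The acid α-glucosidase gene *Gaa*, the sulfatases *Ids* and *Sgsh*, the iduronidase gene *Idua* and the β-glucuronidase gene *Gusb* had log2 fold changes of 0.13, −0.10, 0.22, 0.14 and −0.09, and their groups overlapped.

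**Figure D4:**
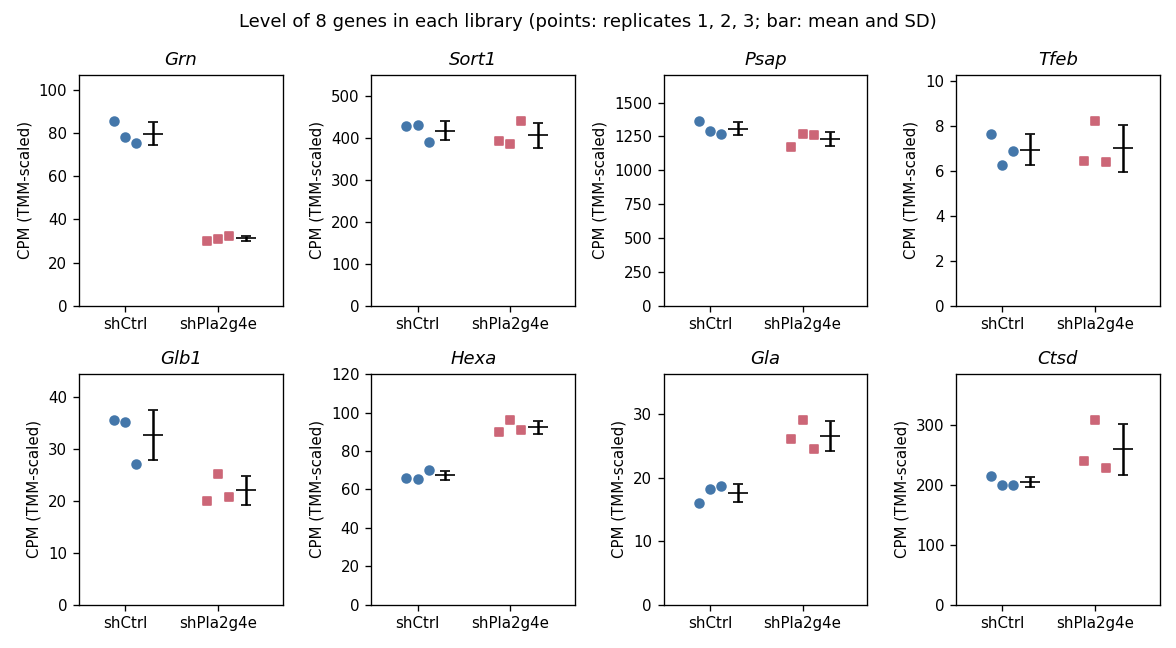
CPM of 8 genes in each library, with the mean and SD of 3 libraries per group; each y axis starts at 0. *Grn* and *Glb1* are lower and *Hexa*, *Gla* and *Ctsd* higher in all 3 shPla2g4e libraries, while the groups of *Sort1* and *Tfeb* overlap.

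Of the 4 lipid members, 3 were higher in every shPla2g4e library than in any shCtrl library, as were 15.5% of all genes tested. None of the 4 passed the threshold in edgeR on all 6 libraries without the block, in limma or in DESeq2 (3 had an unadjusted p under 0.05). *Lipa* encodes the acid lipase that frees cholesterol from its esters. It had 11.4, 11.6 and 10.6 CPM in shCtrl and 16.1, 19.0 and 12 CPM in shPla2g4e, a log2 fold change of 0.49 with a wide 95% interval of 0.16 to 0.82. shPla2g4e replicate 3 was close to the controls, and without it *Lipa* passed the threshold at a log2 fold change of 0.65. *Npc2*, a soluble carrier of cholesterol, had 80.0, 80.0 and 90.8 CPM in shCtrl and 94.1, 111.1 and 95.8 CPM in shPla2g4e (0.26, 95% interval 0.07 to 0.45). Its membrane partner *Npc1* had 54.7, 49.8 and 51.5 CPM in shCtrl and 55.2, 62.6 and 57.1 CPM in shPla2g4e (0.16, 95% interval −0.02 to 0.34). *Ppt1*, a palmitoyl thioesterase, had 77.4, 81.9 and 89.1 CPM in shCtrl and 64.2, 68.2 and 80.6 CPM in shPla2g4e (−0.22, 95% interval −0.42 to −0.02), and its groups overlapped.

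The 7 membrane and enzyme-sorting members had log2 fold changes between −0.14 and 0.10. *Lamp1* and *Lamp2*, which encode the main lysosomal membrane glycoproteins, had log2 fold changes of −0.07 (95% interval −0.25 to 0.12) and −0.14 (−0.32 to 0.04). *Tmem106b*, a lysosomal membrane protein whose human variants modify the risk of progranulin-linked dementia, had 170.1, 173.1 and 165.7 CPM in shCtrl and 162.4, 157.0 and 156.0 CPM in shPla2g4e. Its groups did not overlap, but the log2 fold change was −0.10 (95% interval −0.25 to 0.06). *Scarb2*, the receptor that sorts β-glucocerebrosidase, the calcium channel gene *Mcoln1*, *Cln3* and *Gnptab*, which starts the mannose 6-phosphate tag, had 0.10, 0.03, −0.13 and 0.07. None of the 7 passed the threshold in edgeR with or without the block, in limma or in DESeq2, and 0 had an unadjusted p under 0.05.

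*Tfeb* had 7.66, 6.29 and 6.88 CPM in shCtrl and 6.44, 8.23 and 6.40 CPM in shPla2g4e. The groups overlapped, and the log2 fold change of 0.02 had a 95% interval of −0.35 to 0.38, so a moderate change in either direction was not detectable at this depth. For the V-ATPase, the subunits *Atp6v0a1* and *Atp6v0d1* both had −0.08 and the catalytic subunit *Atp6v1a* had −0.09, and *Atp6v1h* had 0.10. *Atp6v1b2* alone of the 5 had groups that did not overlap, with 598.2, 562.1 and 511.2 CPM in shCtrl and 641.6, 651.2 and 616.0 CPM in shPla2g4e (0.19, 95% interval 0.02 to 0.36). None of the 5 passed the threshold in edgeR with or without the block, in limma or in DESeq2, and 1 had an unadjusted p under 0.05.

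The members were also counted in 2 broad classes. Of 23 proteases, glycosidases, sulfatases and lipid members, 15 had a positive log2 fold change, the median was 0.14, and 9 were higher with groups that did not overlap (15.5% of all genes tested were). Of the 13 membrane, sorting, transcription and V-ATPase members, 6 had a positive log2 fold change, the median was −0.07, and 1 was higher with groups that did not overlap, against the same share. The split was made with the values known and was not tested. The other members were also highest in shPla2g4e replicate 2, where their median lay at 0.13 above the shCtrl mean on the log2 scale, against −0.02 and 0.00 in replicates 1 and 3.

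The promoters of the 4 members past the threshold are shown with the 6-base palindrome CACGTG, the core of the TFEB site, in capitals. Each is 250 bases before to 50 bases after a RefSeq start, on the gene's strand (GRCm38.p6).
*Grn* promoter, chr11:102430257-102430556, plus strand: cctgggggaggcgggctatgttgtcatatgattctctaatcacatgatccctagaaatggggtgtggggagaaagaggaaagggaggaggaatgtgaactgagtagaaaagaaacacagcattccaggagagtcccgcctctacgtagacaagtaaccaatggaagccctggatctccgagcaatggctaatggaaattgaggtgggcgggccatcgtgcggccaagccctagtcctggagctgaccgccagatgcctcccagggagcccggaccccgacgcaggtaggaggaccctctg
*Glb1* promoter, chr9:114400828-114401127, plus strand: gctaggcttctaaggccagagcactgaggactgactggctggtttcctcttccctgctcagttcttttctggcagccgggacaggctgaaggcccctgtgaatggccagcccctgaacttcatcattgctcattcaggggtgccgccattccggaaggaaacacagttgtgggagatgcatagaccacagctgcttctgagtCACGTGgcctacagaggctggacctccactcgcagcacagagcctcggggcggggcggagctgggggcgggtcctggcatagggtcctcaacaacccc
*Hexa* promoter, chr9:59539290-59539589, plus strand: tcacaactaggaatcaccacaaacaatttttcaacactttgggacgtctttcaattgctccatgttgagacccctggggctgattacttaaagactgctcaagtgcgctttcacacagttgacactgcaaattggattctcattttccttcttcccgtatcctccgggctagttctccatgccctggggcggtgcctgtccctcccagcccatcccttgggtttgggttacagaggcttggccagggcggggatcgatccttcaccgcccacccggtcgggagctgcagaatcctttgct
*Gla* promoter, chrX:134600956-134601255, minus strand: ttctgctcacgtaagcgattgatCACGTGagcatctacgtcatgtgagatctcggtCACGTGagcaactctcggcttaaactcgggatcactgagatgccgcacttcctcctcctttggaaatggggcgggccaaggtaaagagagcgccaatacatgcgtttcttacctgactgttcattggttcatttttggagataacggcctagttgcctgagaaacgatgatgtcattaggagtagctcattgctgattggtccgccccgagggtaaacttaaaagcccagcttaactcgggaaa
*Gla* holds the palindrome 2 times, 227 and 194 bases before the start, and both copies are part of the longer form TCACGTGA. *Glb1* holds it once, 48 bases before the start, and the windows of *Grn* and *Hexa* do not hold these letters.

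Over the 33 members with a promoter window, 14 (42.4%) held CACGTG, against 10.7% of the 13780 tested genes with a window and 7.15% of all 32851 windows. The longer form TCACGTGA, which contains the shorter one, was present in 7 members (21.2%), against 1.81% of the tested genes with a window. Of 87 other lysosomal genes with a window, examined below, 21 (24.1%) held CACGTG and 10 (11.5%) the longer form. Both motifs read the same on both strands. *Lamp1* held CACGTG 4 times, from 61 to 15 bases before its start, and *Mcoln1*, *Cln3*, *Ctsd* and *Ctsa* held it 2 times each in a window, as *Gla* did.

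Another 116 lysosomal genes outside the 39 were examined in the same fit, of which 110 had enough reads to be tested. Of these, 5 were called lower and 3 higher, against 4.00% and 2.48% of all genes tested, and their median log2 fold change was −0.01. With the replicate block, 14 were called lower and 9 higher, against 9.02% and 6.50%. None of the 17 other V-ATPase subunits tested was called by edgeR without the block, although 4 had an unadjusted p under 0.05 and limma and DESeq2 each called 1. With the block, 1 was lower and 2 were higher, against the same 9.02% and 6.50%. *Atp6v0e2*, the one with the highest level per length, had a log2 fold change of −0.08 from an shCtrl level of 432.3 ± 20.0 CPM (SD, n = 3).

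*Sumf1*, which encodes the enzyme that activates sulfatases, had the lowest log2 fold change of these lists in edgeR without the block. It had 15.9, 16.3 and 17.3 CPM in shCtrl and 7.40, 6.15 and 8.11 CPM in shPla2g4e, and the groups were far apart (log2 fold change −1.19, standard error 0.14, edgeR adjusted p = 4.24e-05). The sulfatases *Ids* and *Sgsh* among the members, given above, did not pass the threshold. *Plbd2*, a lysosomal phospholipase B-like protein, fell from 153.0 ± 4.56 to 114.5 ± 6.23 CPM (SD, n = 3, log2 fold change −0.42, edgeR adjusted p = 0.00181). So 2 of the 34 hydrolases and cofactors were called lower and 0 higher, against 4.00% and 2.48% of all genes, and the other 32 were not called. Limma called 2 and DESeq2 3 in all. With the block 2 were lower and 2 higher, against 9.02% and 6.50% of all genes. *Lgmn*, the legumain gene and that list's highest per length, had a log2 fold change of 0.07. The 3′ UTR of *Sumf1* holds the seed match once, also pairing with guide base 1, at chr6:108108335-108108364 on the minus strand of GRCm38. That of *Plbd2* holds it once at chr5:120485615-120485644 on the minus strand of the same build.
*Sumf1* site: atgtccacccaGTGGCCAaaggaactgtct
*Plbd2* site: cttcattttgtGTGGCCAgtgggtcataca

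Among 23 other lysosomal membrane proteins tested, 2 were called lower and 2 higher, against 4.00% and 2.48% of all genes (limma called 4 and DESeq2 5 in all). *Slc36a1*, an amino acid transporter of the lysosomal membrane, had 77.9, 73.4 and 62.7 CPM in shCtrl and 38.6, 32.1 and 37.4 CPM in shPla2g4e (log2 fold change −0.98, edgeR adjusted p = 1.14e-05). *Sidt2* fell from 174.7 ± 6.15 to 134.0 ± 5.77 CPM (SD, n = 3; −0.38, edgeR adjusted p = 0.00334). *Laptm4b* rose from 48.8 ± 3.19 to 71.3 ± 7.34 CPM (SD, n = 3; 0.55, edgeR adjusted p = 0.000897). *Cd68*, best known as a marker of macrophages, rose from 18.0 ± 4.51 to 28.7 ± 3.45 CPM (SD, n = 3; 0.67, edgeR adjusted p = 0.00872), in libraries whose defining microglia genes were near 0. This call was lost under 7 of 16 alternatives, among them leaving out shCtrl replicate 2 or 3 or shPla2g4e replicate 1 or 2 (adjusted p of 0.0107 to 0.0434). The tetraspan *Laptm4a*, the list's highest per length, had a log2 fold change of 0.10. No annotated 3′ UTR of *Slc36a1*, *Sidt2*, *Laptm4b* or *Cd68* holds the seed match. With the block, 5 of the 23 were lower and 2 higher, against 9.02% and 6.50% of all genes.

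Of the 20 other sorting genes, *Sorcs2*, a relative of sortilin, was the 1 called lower, and 0 were called higher, against 4.00% and 2.48% of all genes. Limma called 1 and DESeq2 2 in all, and 8 had an unadjusted p under 0.05 in edgeR. *Sorcs2* had 214.8, 209.4 and 168.5 CPM in shCtrl and 131.8, 122.4 and 121.7 CPM in shPla2g4e (log2 fold change −0.66, edgeR adjusted p = 0.000228). No annotated 3′ UTR of *Sorcs2* holds the seed match. With the block, 5 sorting genes were lower and 1 higher, against the same 9.02% and 6.50%. *Lrp1*, an endocytic receptor and the list's highest per length, had a log2 fold change of −0.11. Among 16 relatives of TFEB and genes of nutrient sensing, edgeR without the block called 1 higher, against 2.48% of all genes, and with the block 1 lower and 2 higher, against 9.02% and 6.50% (limma called 1 and DESeq2 2 in all). *Flcn*, which encodes folliculin, a regulator of TFEB and its relatives, was the 1 called without the block and rose from 69.9 ± 8.55 to 103.7 ± 11.7 CPM (SD, n = 3; 0.57, edgeR adjusted p = 0.00144). *Rraga*, a GTPase of the same signalling platform, had a log2 fold change of 0.17.

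Of 12 other genes whose human counterparts are linked to frontotemporal dementia, edgeR without the block called 1 lower, against 4.00% of all genes, and with the block 2 lower, against 9.02% (limma called 1 and DESeq2 2 in all). *Mapt*, which encodes tau, had 837.0, 869.8 and 667.9 CPM in shCtrl and 515.6, 530.9 and 469.6 CPM in shPla2g4e, with no overlap (log2 fold change −0.65, edgeR adjusted p = 0.000382). The autophagy receptor gene *Sqstm1*, the highest per length, had a log2 fold change of 0.03. The 3′ UTR of *Mapt* holds the seed match once, from base 3508. That of *Sqstm1*, which was not called, also holds it once, from base 8. Both matches also pair with guide base 1.

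**Figure D5:**
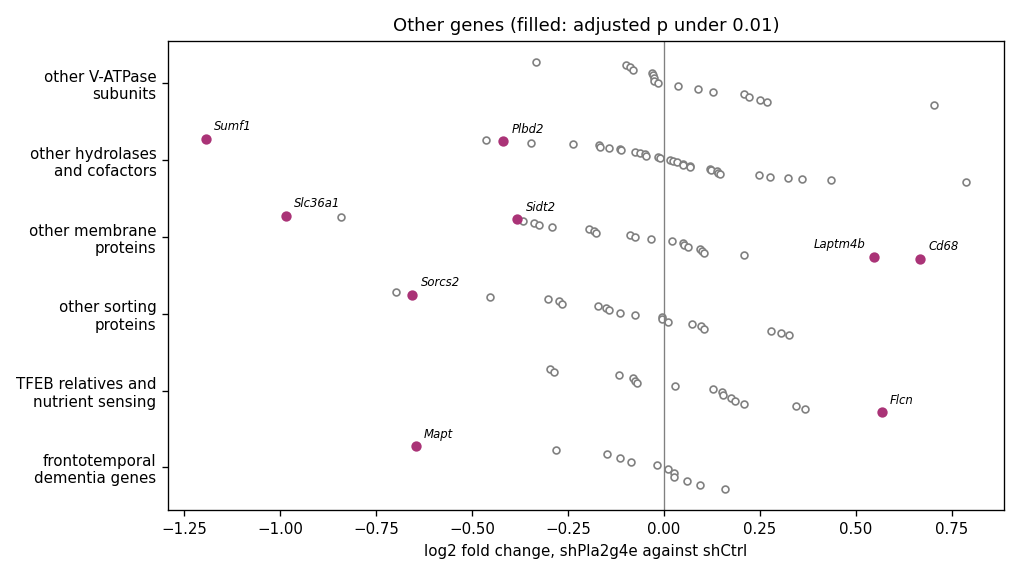
Log2 fold change, shPla2g4e against shCtrl, of the other lysosomal genes and the frontotemporal dementia genes by list. Filled and named points passed an adjusted p of 0.01, from *Sumf1* at −1.19 to *Cd68* at 0.67.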

How the data were processed

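Per the labels, polyadenylated RNA was prepared with a stranded kit. Per the file headers, the deposited values are raw counts per gene from featureCounts 1.6.0 over exons, with the annotation GENCODE vM28 (GRCm39) and no strand setting. The study's methods name mm10 and Gencode M18 instead. Gene coordinates here follow the headers, while the windows of seed matches and promoters are on GRCm38. The submitters' processing notes also list FastQC 0.11.8, STAR 2.7.0d, edgeR and limma. Reads shared by overlapping genes were not counted, and without strand a gene and its antisense neighbour cannot be told apart.

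Symbols matched 52081 of 55357 gene identifiers, and 0.286% to 0.387% of reads lay in the rest. The 21876 genes that reached 6 reads in any library were tested with edgeR 4.0.16 (R 4.3.3): TMM scaling, quasi-likelihood test, Benjamini-Hochberg adjustment, called at an adjusted p of 0.01. No 2 libraries agreed within sampling noise. The test was also run on simulated counts, and the outcome is not given here. Limma 3.58.1 after voom and DESeq2 1.42.0 served as alternatives. Same-numbered libraries deviated together (correlations 0.392, 0.189 and 0.461 over 10908 genes, against −0.393 to 0.108 for other pairs), so the number was used as a block in an alternative. Sequences came from GENCODE vM21 (GRCm38), RefSeq promoters (GRCm38.p6) and the study's oligonucleotide list. The members and all gene lists were chosen with earlier results of these data known. Named were all members, *Pla2g4e*, up to 5 called genes per other list and each list's highest gene per length, and of markers that gene and 2 specific ones. Of the specific ones, *Cldn5* had too few reads to be tested. *Sorcs1* and *Rptor* were named for their seed matches.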

Additional observations from a re-analysis of the deposited data

How the results depend on the processing

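The fall of *Grn* relative to the median of the other members was −1.39 in the fit reported and lay between −1.35 and −1.45 when 1 library was left out. The median of the members ran from 0.001 to 0.08 when 1 library was left out, and was 0.102 with library size alone as the scaling, which moved the median of all genes by 0.074. Members called lower numbered 1 (*Grn*) with library size alone and with at least 10 reads in every library, and 1 to 2 when 1 library was left out. Members called higher numbered 7 with the replicate block and 5 at an adjusted p of 0.05, and 0 to 4 when 1 library was left out; the 0 came without shCtrl replicate 2. Other lysosomal genes called lower numbered 14 with the block, 8 with DESeq2, 12 at an adjusted p of 0.05 and 3 to 7 when 1 library was left out. Those called higher numbered 9 with the block, 7 with library size alone, 6 with no filter, 5 with DESeq2, 7 at an adjusted p of 0.05 and 1 to 5 when 1 library was left out. Over all 21876 genes tested, 876 were lower and 543 higher in the fit reported. These became 1973 and 1422 with the block, 1214 and 687 with DESeq2, and 609 and 796 with library size alone. They were 1360 and 989 of 32161 with no filter, and 764 and 498 of 15312 with at least 10 reads in every library. Without 1 library they were 449 to 932 and 246 to 681. The number over all genes at an adjusted p of 0.05 is not given here. The causes were not tested, apart from the fewer samples or the looser threshold that these settings contain. None of the named genes that were called changed sign under any of the 16 alternatives. Among the members, beside the calls gained with the block, *Ctsd* was called with no filter and without shPla2g4e replicate 3, *Lipa* without shPla2g4e replicate 3 and *Neu1* with library size alone. Of the other called genes named, *Plbd2* lost its call without shCtrl replicate 2 or shPla2g4e replicate 1 (adjusted p of 0.0167 and 0.0174), *Flcn* without shCtrl replicate 2 (0.0168), *Sidt2* without shCtrl replicate 1 or 2 or shPla2g4e replicate 1 (0.0141 to 0.0294), *Rbfox3* without any 1 library except shCtrl replicate 3 (0.0117 to 0.0271), *Aqp4* in the robust edgeR fit and in DESeq2 (0.0124 to 0.122) and *Cd68* under 7 of 16 alternatives (0.0107 to 0.0434), while *Pla2g4e*, *Sumf1*, *Slc36a1*, *Laptm4b*, *Sorcs2* and *Mapt* kept theirs under all 16. With 2 to 32 reads per library, *Ctss* and *Ctsh* allow no statement on their change.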
